A study of Mus musculus with 16 samples.

Results

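Axon guidance genes were taken from the table of 24982 genes by their symbols: every semaphorin of classes 3 to 7, every plexin, neuropilin, Eph receptor and ephrin, Robo1 to Robo4, Slit1 to Slit3, Unc5a to Unc5d, the netrins, both netrin-Gs and Dcc. The rule found 70 genes, of which 36 were counted as ligands and 34 as receptors or co-receptors. The netrin-Gs, which are anchored to the membrane, were counted with the netrins as ligands. They comprise 20 semaphorins, 9 plexins, 2 neuropilins, 9 EphA and 5 EphB receptors, 5 ephrin-As, 3 ephrin-Bs, 4 Robo receptors, 3 Slits, 5 netrin receptors of the Unc5 and Dcc type, and 5 netrins or netrin-Gs. RNA was sequenced from lumbar dorsal root ganglia, the clusters of sensory neuron cell bodies beside the spinal cord. Ganglia came from TrkA/C knock-in (KI) and wild-type (WT) mice of the C57BL/6 strain, aged 10 to 12 weeks, taken on the injected side 14 days after an injection into the ankle joint. The injection was either complete Freund's adjuvant (CFA), an emulsion that inflames the joint, or vehicle, called saline in the sample titles. The 4 groups were KI CFA, KI vehicle, WT CFA and WT vehicle, each with 4 libraries, and every library pooled 6 ganglia from 2 mice, so single animals and single cells cannot be seen. The labels do not describe the TrkA/C construct, its zygosity or the sex of the mice, and 1 library titled WT CFA carries a knock-in genotype tag. That library is WT CFA replicate 1 and was kept with its title.

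Guidance cues steer growing axons by attraction or repulsion, and in adult ganglia the same molecules are known for roles in sprouting, synapse maintenance and nociceptor excitability. Semaphorins signal through plexins, with neuropilins as co-receptors for the secreted class 3. Slits signal through Robo receptors, netrins through Dcc and Unc5 receptors, and ephrins through Eph receptor kinases, often in both directions at a cell contact. In the mouse, TrkC (Ntrk3) is the neurotrophin-3 receptor of proprioceptors and some mechanoreceptors.

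The libraries held between 22742209 and 40910947 counts, and replicates of a group correlated at 0.979 to 0.992 (Pearson, log2 CPM, the count scaled to the size of its library). Ntrk3 lay between 99.1 and 138 CPM in the 8 KI libraries and between 29.3 and 61.4 CPM in the 8 WT libraries. The library with the conflicting tag had 48.4 CPM of Ntrk3, inside the range of the other WT libraries. All 10 sensory neuron markers were detected, with summed levels of 19381 to 22957 CPM in KI and 19609 to 22594 CPM in WT. Skeletal muscle markers summed to 863 and 770.0 CPM in KI vehicle replicates 1 and 4 and to 115 CPM in KI vehicle replicate 3, against 2.34 to 77.7 CPM in the other 13 libraries. Neutrophil markers summed to 274 CPM in KI CFA replicate 3, against 4.24 to 31.0 CPM elsewhere. WT vehicle replicate 4 also stood apart: it held the lowest of 16 values for 22 of the 68 guidance genes tested.

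Most guidance genes were expressed in the adult ganglia. A filter on low counts kept 15507 genes and 68 of the 70 guidance genes, leaving out Robo3, with 73 counts over all libraries, and Epha1, with 30. Levels between genes were compared as CPM per kilobase of exon. Plxnc1, the plexin that binds Sema7a, had the highest mean level, 64.8 CPM per kilobase, with a range of 46.5 to 74.9 over the 16 libraries. Its partner Sema7a, a semaphorin anchored to the membrane by a lipid, ranked 4 at 32.0 CPM per kilobase. Sema3b, a secreted class 3 semaphorin, followed Plxnc1 at 35.8 CPM per kilobase, and its range of 28.3 to 40.7 overlapped those of the next 5 genes, so their order is not resolved by these libraries. Among these were Robo2, a Slit receptor, at 31.4, the transmembrane semaphorin Sema4f at 31.0 and Slit1, a secreted Robo ligand, at 29.2 CPM per kilobase. Nrp1, the co-receptor that Sema3a and vascular endothelial growth factor share, had 24.7 CPM per kilobase, against 6.75 for Nrp2. In the other families the highest member was Epha6 among EphA receptors, at 4.60 CPM per kilobase. Ephb6, an Eph receptor without kinase activity, led the EphB receptors at 10.4, Efna1 the ephrin-As at 16.6 and Efnb2 the ephrin-Bs at 9.79 CPM per kilobase. Unc5a, a netrin receptor known for repulsion, led its family at 4.99, and Ntng2, a membrane-anchored netrin-G, led the netrins at 9.19 CPM per kilobase. Dcc, the attractive netrin receptor, stood at 0.213 CPM per kilobase. Sema3a, a repellent for nociceptor axons during development, was the lowest gene that passed the filter, at 0.0561 CPM per kilobase.

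**Figure D1:**
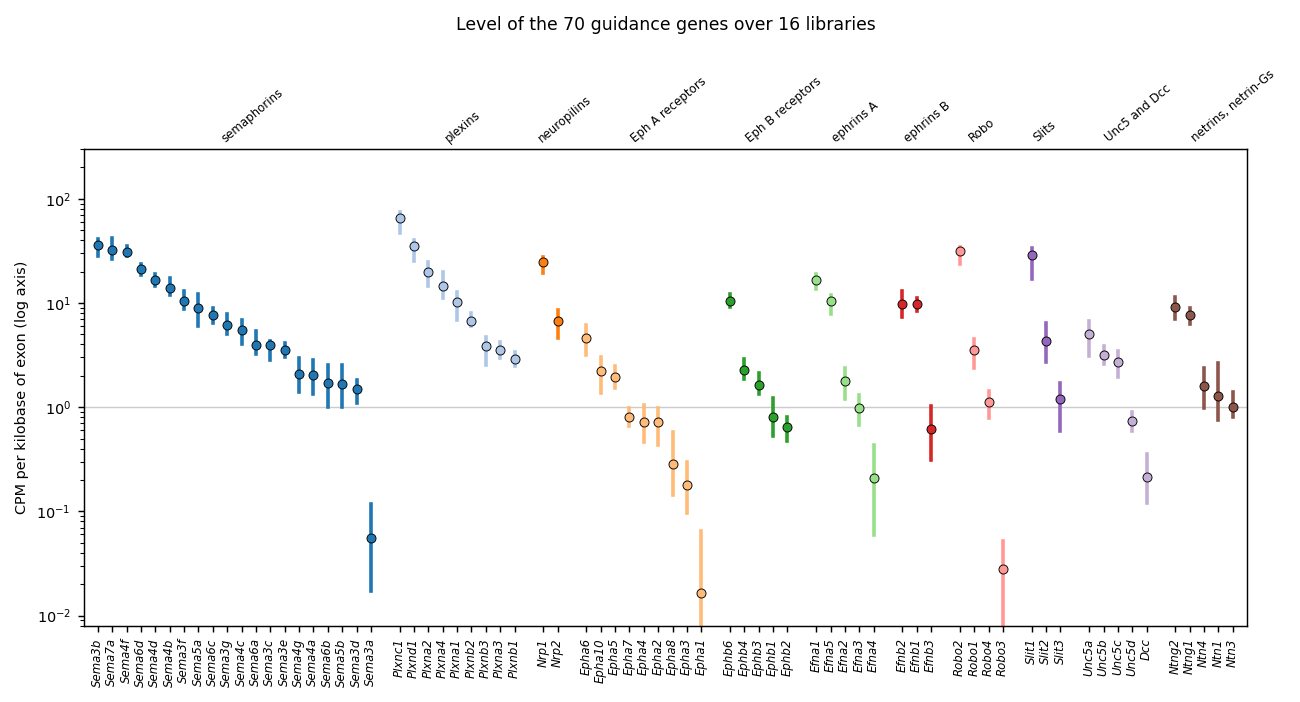
Level of each of the 70 guidance genes in CPM per kilobase of exon on a log axis, grouped by family. Points are means of 16 libraries, lines run from the lowest to the highest library, and lines that meet the lower edge run on below it. Plxnc1 is highest at 64.8, and Epha1 and Robo3 lie at the bottom.

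Guidance genes differed between genotypes. Averaged over both injections, 11 of 68 tested members were higher and 8 were lower in KI than in WT ganglia, at an adjusted p under 0.05 in edgeR's quasi-likelihood test with Benjamini-Hochberg adjustment over all genes. The members called made up 27.9% of those tested, against 8.96% of all genes, of which 4.33% were higher and 4.64% lower. DESeq2 and limma-voom each called 21 members. The shares of all genes called by DESeq2, limma-voom and the other refits are not given here, so their member counts have no such background. Ligands made up 7 of the higher and 5 of the lower genes, with Ntng1 and Ntng2 counted among the 5. Receptors made up 4 of the higher and 3 of the lower. The differences were small. Only Slit2, at 1.59-fold, and Sema5b, at 1.52-fold, reached 1.5-fold among the 19, and the median log2 fold change of the 68 members was 0.05, against 0.00 over all genes. A group of 13 members was called in the main test and in every alternative and leave-one-out fit: Slit2, Slit3, Sema5b, Sema6b, Sema7a, Plxna1, Plxnc1, Efnb2 and Unc5a, which rose, and Sema5a, Nrp2, Epha5 and Ntng2, which fell.

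**Figure D2:**
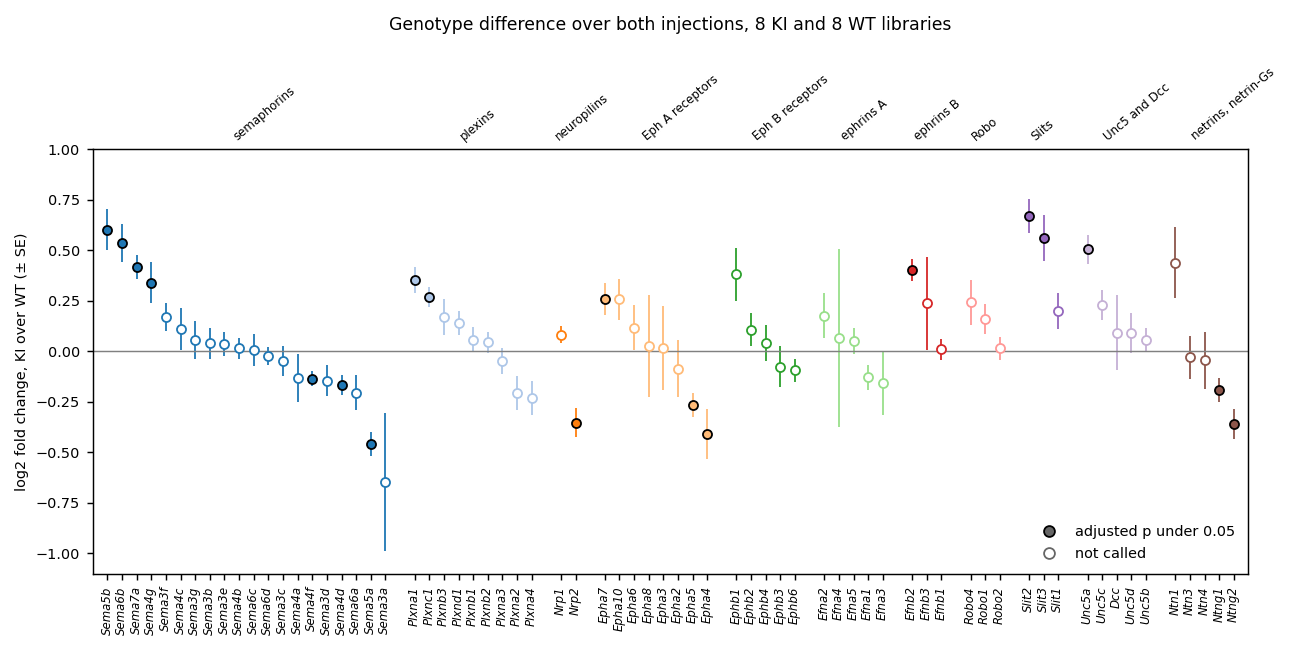
Log2 fold change (KI over WT, mean of both injections) with its standard error for the 68 guidance genes tested, grouped by family and ordered within it. Filled points passed an adjusted p under 0.05, 11 above and 8 below 0. Slit2 is the highest point at 0.67, and Sema3a, the lowest at -0.65, did not pass.

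Levels of neuron-subtype markers also differed between genotypes. A set of 5 peptidergic nociceptor markers summed to 1176 to 1418 CPM in KI and to 1748 to 2744 CPM in WT, without overlap, and all 5 fell. Of 6 markers of large A-fibre neurons 5 rose, with sums of 3253 to 4524 CPM in KI and 2896 to 3769 CPM in WT. Non-peptidergic markers summed to 2868 to 3284 CPM in KI and 2322 to 3020 CPM in WT, and 3 of 6 rose. Markers of C-low-threshold mechanoreceptors summed to 775 to 948 CPM in KI and 532 to 862 CPM in WT, and 2 of 5 rose. Skeletal muscle markers, described above by library, rose for 7 of 10. Without KI vehicle replicates 1 and 4, the libraries with most muscle RNA, 15 members were called over both injections, and 13 were called with a muscle score as a covariate. None of these markers was at 0. Their part in the differences of the guidance genes was not tested, and in whole ganglia fewer cells of a type and less RNA per cell cannot be told apart.

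Of the 3 Slits, secreted ligands of Robo receptors, Slit2 and Slit3 rose in KI ganglia. For this and the family counts below, 4.33% of all genes were called higher and 4.64% lower over both injections. Slit2 (chr5:47981291-48307735, GENCODE M21 on GRCm38, as are the positions below) had 46.7, 49.2, 57.4 and 46.1 CPM in the KI CFA libraries and 48.1, 64.1, 53.7 and 60.9 CPM in the KI vehicle libraries, against 38.6, 38.2, 27.3 and 32.2 CPM in the WT CFA libraries and 37.3, 32.3, 35.2 and 26.9 CPM in the WT vehicle libraries. All 8 KI libraries lay above all 8 WT libraries. The log2 fold change was 0.67 ± 0.08 (SE, n = 8 KI and 8 WT libraries, edgeR adjusted p = 5.25e-05). Slit3 (chr11:35121456-35708507), at a far lower level, had 6.84, 7.85, 6.44 and 5.93 CPM in the KI CFA libraries and 6.52, 8.85, 8.42 and 8.54 CPM in the KI vehicle libraries, against 5.15, 4.83, 3.06 and 5.53 CPM in the WT CFA libraries and 6.19, 4.55, 5.61 and 5.24 CPM in the WT vehicle libraries. The genotypes overlapped only because KI CFA replicate 4 lay below WT vehicle replicate 1, and WT CFA replicate 3 was the lowest of all. Slit3 rose, with a log2 fold change of 0.56 ± 0.11 (edgeR adjusted p = 0.00401). Slit1 was not called (0.20 ± 0.09, edgeR adjusted p = 0.173), and its WT vehicle replicate 4, with 99.0 CPM, lay below the 148 to 198 CPM of the other 15 libraries. Their receptor Robo2 did not pass the test either, with a log2 fold change of 0.01 ± 0.06 (edgeR adjusted p = 0.913). Robo2 was the lowest of the 3 Robo genes tested, whose median was 0.16 and highest value 0.24. Of the 3, 2 had a nominal p under 0.05, against 24.4% of all genes, and 0 were called by edgeR, DESeq2 or limma-voom. With vehicle, DESeq2 called 1 Robo gene, and edgeR and limma-voom called 0.

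Among semaphorins, 4 of 20 members rose and 3 fell. Sema7a (chr9:57939596-57962865), which acts through Plxnc1 and through integrins, had 119, 137, 132 and 108 CPM in the KI CFA libraries and 103, 139.5, 113 and 115 CPM in the KI vehicle libraries, against 86.3, 92.0, 87.6 and 91.7 CPM in the WT CFA libraries and 88.8, 91.5, 96.0 and 89.6 CPM in the WT vehicle libraries. Every KI library exceeded every WT library, and the WT libraries lay close together, from 86.3 to 96.0 CPM. Sema7a rose, with a log2 fold change of 0.42 ± 0.06 (edgeR adjusted p = 1.23e-04). Sema5b (chr16:35541154-35664261), a transmembrane semaphorin that acts through class A plexins in the mouse retina, had 9.38, 8.92, 8.68 and 8.21 CPM in the KI CFA libraries and 9.85, 9.41, 8.80 and 11.7 CPM in the KI vehicle libraries, against 7.38, 5.90, 5.49 and 7.03 CPM in the WT CFA libraries and 4.81, 7.33, 6.65 and 4.71 CPM in the WT vehicle libraries. The genotypes did not overlap, although every value was below 12 CPM, and the log2 fold change was 0.60 ± 0.10 (edgeR adjusted p = 7.98e-04). Sema6b (chr17:56123085-56140343), a transmembrane ligand of class A plexins, had 8.02, 10.2, 8.13 and 7.77 CPM in the KI CFA libraries and 6.96, 7.87, 6.34 and 8.54 CPM in the KI vehicle libraries, against 5.82, 5.31, 4.03 and 5.04 CPM in the WT CFA libraries and 5.80, 5.28, 6.44 and 6.31 CPM in the WT vehicle libraries. With CFA the genotypes were separate, whereas 1 of 4 KI vehicle libraries lay within the WT vehicle range. Its log2 fold change was 0.54 ± 0.09 (edgeR adjusted p = 0.00107).

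The related class 5 semaphorin Sema5a moved the other way. Sema5a (chr15:32244813-32696341) had 81.7, 65.0, 73.1 and 72.8 CPM in the KI CFA libraries and 77.8, 93.8, 92.6 and 98.0 CPM in the KI vehicle libraries, against 121, 131, 105 and 103 CPM in the WT CFA libraries and 116, 111, 110.1 and 98.4 CPM in the WT vehicle libraries. All KI libraries were below all WT libraries, narrowly so between KI vehicle replicate 4 and WT vehicle replicate 4, and the KI CFA libraries lay below the KI vehicle libraries except that KI vehicle replicate 1 lay among them. Sema5a fell, with a log2 fold change of -0.46 ± 0.06 (edgeR adjusted p = 8.76e-05). Smaller differences were called for 3 further transmembrane semaphorins. Sema4g averaged 9.97 ± 1.17 CPM in KI CFA and 11.3 ± 1.68 CPM in KI vehicle, against 8.45 ± 1.84 CPM in WT CFA and 8.32 ± 0.850 CPM in WT vehicle libraries (SD, n = 4 each), a log2 fold change of 0.34 ± 0.10 (edgeR adjusted p = 0.0452). Sema4d, the ligand of Plxnb1, averaged 72.4 ± 5.27 CPM in KI CFA and 76.0 ± 4.09 CPM in KI vehicle, against 84.8 ± 4.14 CPM in WT CFA and 81.5 ± 8.05 CPM in WT vehicle libraries, a log2 fold change of -0.17 ± 0.05 (edgeR adjusted p = 0.0426). Sema4f averaged 122 ± 2.82 CPM in KI CFA and 120.1 ± 2.21 CPM in KI vehicle, against 139 ± 7.56 CPM in WT CFA and 127 ± 9.78 CPM in WT vehicle libraries, a log2 fold change of -0.14 ± 0.04 (edgeR adjusted p = 0.0348). These calls lay close to the threshold. With 1 library left out at a time, Sema4g kept its call in 4 of 16 fits (without KI CFA replicate 3, KI vehicle replicate 1, WT CFA replicate 1 or WT vehicle replicate 3) and stood at 0.29 to 0.35 in the other 12. Sema4d kept its call in 3 (without KI CFA replicate 4, KI vehicle replicate 1 or WT vehicle replicate 4) and stood at -0.17 to -0.13 otherwise. Sema4f kept its call in 4 (without KI CFA replicate 1, WT CFA replicate 4, WT vehicle replicate 3 or WT vehicle replicate 4) and stood at -0.14 to -0.11 otherwise.

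Of the semaphorin receptors, 2 of 9 plexins rose and 1 of 2 neuropilins fell. Plxnc1 (chr10:94790866-94945015) had 476, 475, 546 and 547 CPM in the KI CFA libraries and 529, 518, 518 and 522 CPM in the KI vehicle libraries, against 442, 458, 460.5 and 445 CPM in the WT CFA libraries and 446, 412, 435 and 339 CPM in the WT vehicle libraries. The genotypes did not overlap, WT vehicle replicate 4 being the lowest, and Plxnc1 rose, with a log2 fold change of 0.27 ± 0.05 (edgeR adjusted p = 0.00193). Plxna1 (chr6:89316313-89362613), a class A plexin that partners with neuropilins, had 92.8, 104, 105 and 98.9 CPM in the KI CFA libraries and 99.4, 109.6, 103 and 114 CPM in the KI vehicle libraries, against 89.8, 92.9, 73.1 and 78.7 CPM in the WT CFA libraries and 84.4, 86.4, 79.9 and 62.1 CPM in the WT vehicle libraries. The KI CFA values reached down to those of WT CFA replicate 2, which alone among WT libraries exceeded the lowest KI library. The log2 fold change was 0.35 ± 0.06 (edgeR adjusted p = 0.00172), and 10.7% of the exon bases of Plxna1 lie opposite the gene Gm26811, whose reads are kept apart only if the counting used strand. The exons of Plxnc1 share 1.57% of their bases with Gm48718 on the same strand. The other 7 plexins were not called by edgeR, whereas limma-voom called 4 plexins in all and DESeq2 called 2. Nrp2 (chr1:62703317-62818692), the co-receptor preferred by Sema3f, had 64.0, 47.7, 52.9 and 64.7 CPM in the KI CFA libraries and 66.2, 63.6, 64.3 and 69.6 CPM in the KI vehicle libraries, against 84.0, 88.8, 74.3 and 79.1 CPM in the WT CFA libraries and 80.8, 83.7, 77.6 and 60.2 CPM in the WT vehicle libraries. KI libraries were lower except that WT vehicle replicate 4 fell among them, and the log2 fold change was -0.35 ± 0.07 (edgeR adjusted p = 0.00372). Nrp1 was not called over both injections (0.08 ± 0.04, edgeR adjusted p = 0.237).

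In the ephrin system the ligand Efnb2 rose and 2 of 3 called Eph receptors fell. Efnb2 (chr8:8617235-8661242), a transmembrane ligand of EphB receptors and Epha4, had 50.1, 55.4, 51.2 and 49.5 CPM in the KI CFA libraries and 50.8, 63.0, 54.5 and 52.9 CPM in the KI vehicle libraries, against 39.5, 41.7, 39.1 and 37.6 CPM in the WT CFA libraries and 43.5, 44.1, 42.5 and 35.5 CPM in the WT vehicle libraries. The KI libraries lay entirely above the WT libraries, and Efnb2 rose, with a log2 fold change of 0.40 ± 0.05 (edgeR adjusted p = 7.74e-05). Epha5 (chr5:84054761-84417818), a receptor for ephrin-As, had 17.9, 16.6, 15.6 and 17.7 CPM in the KI CFA libraries and 19.6, 19.0, 17.0 and 20.9 CPM in the KI vehicle libraries, against 23.0, 25.0, 22.1 and 19.7 CPM in the WT CFA libraries and 21.0, 21.6, 19.1 and 21.7 CPM in the WT vehicle libraries. The CFA libraries were separate by genotype while the vehicle libraries overlapped, and the log2 fold change was -0.26 ± 0.06 (edgeR adjusted p = 0.00817). Epha4, which binds ephrins of both classes, averaged 3.37 ± 0.458 CPM in KI CFA and 4.47 ± 1.13 CPM in KI vehicle, against 5.52 ± 0.816 CPM in WT CFA and 4.82 ± 0.703 CPM in WT vehicle libraries (SD, n = 4 each). It fell, with a log2 fold change of -0.41 ± 0.12 (edgeR adjusted p = 0.0452). Epha7, another ephrin-A receptor, averaged 6.98 ± 0.353 CPM in KI CFA and 6.37 ± 0.755 CPM in KI vehicle, against 5.62 ± 0.471 CPM in WT CFA and 5.52 ± 0.548 CPM in WT vehicle libraries, and rose, with a log2 fold change of 0.26 ± 0.08 (edgeR adjusted p = 0.0490). With 1 library left out, the Epha4 call held in 5 of 16 fits (without KI CFA replicate 4, KI vehicle replicate 3, WT CFA replicate 1, WT vehicle replicate 2 or WT vehicle replicate 4) and its value was -0.43 to -0.35 in the rest. The Epha7 call held in 3 (without KI vehicle replicate 1, WT CFA replicate 2 or WT vehicle replicate 4), with 0.23 to 0.28 in the rest. None of the 5 EphB receptors was called by edgeR, with 1 nominal p under 0.05, 1 call in DESeq2 and 0 in limma-voom. None of the 5 ephrin-As was called by edgeR, DESeq2 or limma-voom, and 0 had a nominal p under 0.05. The most expressed of each family were Ephb6, with a log2 fold change of -0.09 ± 0.06 (edgeR adjusted p = 0.330), Efna1, with -0.13 ± 0.06 (edgeR adjusted p = 0.207), and Epha6, with 0.12 ± 0.11 (edgeR adjusted p = 0.558).

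In the netrin system 1 receptor rose and both netrin-Gs fell. Unc5a (chr13:54945151-55006018) had 22.5, 26.6, 22.9 and 22.0 CPM in the KI CFA libraries and 23.4, 23.0, 23.0 and 23.8 CPM in the KI vehicle libraries, against 16.7, 17.3, 17.2 and 15.9 CPM in the WT CFA libraries and 17.4, 19.4, 15.7 and 12.3 CPM in the WT vehicle libraries. KI libraries stayed between 22.0 and 26.6 CPM, and no WT library exceeded 19.4 CPM, while 0.851% of its exon bases lie opposite Hk3. The log2 fold change was 0.50 ± 0.07 (edgeR adjusted p = 1.69e-04). Ntng2 (chr2:29194726-29248099), a synaptic adhesion molecule that binds the netrin-G ligands, had 22.2, 26.5, 21.8 and 19.0 CPM in the KI CFA libraries and 18.7, 22.5, 21.7 and 19.9 CPM in the KI vehicle libraries, against 28.8, 28.0, 30.5 and 28.3 CPM in the WT CFA libraries and 25.3, 30.3, 28.3 and 21.8 CPM in the WT vehicle libraries. With CFA the genotypes were separate, and with vehicle WT vehicle replicate 4 lay among the KI libraries. Ntng2 fell, with a log2 fold change of -0.36 ± 0.07 (edgeR adjusted p = 0.00379). In GENCODE M21, 20.4% of its exon bases are shared on the same strand with 6530402F18Rik. How reads from these bases were counted is not known, and their part in the value was not tested. Ntng1 averaged 42.5 ± 4.19 CPM in KI CFA and 44.6 ± 2.92 CPM in KI vehicle, against 50.7 ± 3.54 CPM in WT CFA and 48.8 ± 5.26 CPM in WT vehicle libraries, a log2 fold change of -0.19 ± 0.06 (edgeR adjusted p = 0.0486). That call held in 3 of 16 fits with 1 library left out (without KI CFA replicate 4, KI vehicle replicate 4 or WT vehicle replicate 4), with -0.21 to -0.17 in the rest. Unc5b was not called (0.06 ± 0.06, edgeR adjusted p = 0.621). Over all families, the 49 members without a call ran from -0.65 for Sema3a to 0.44 for Ntn1, the netrin that binds Dcc and Unc5 receptors, on the log2 scale.

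**Figure D3:**
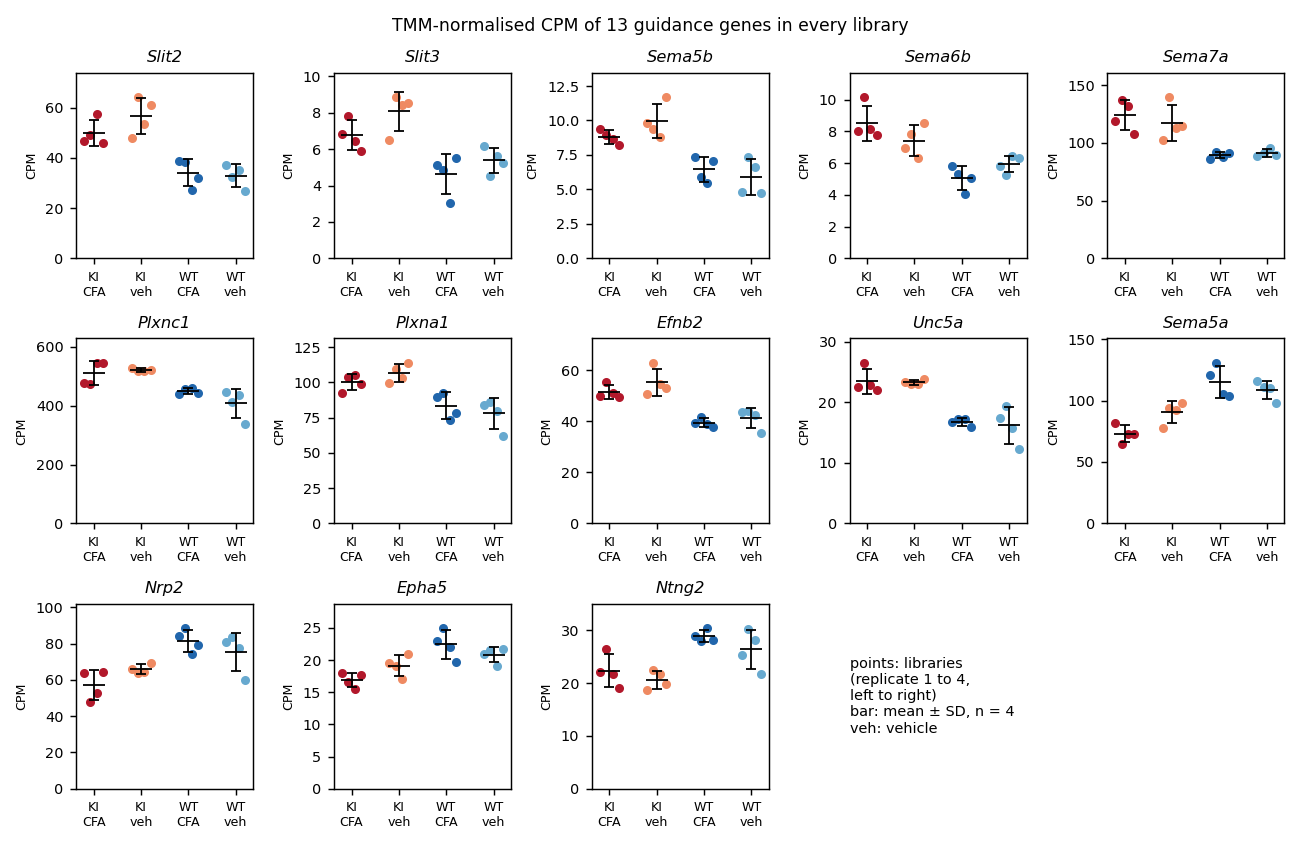
TMM-normalised CPM of 13 guidance genes in every library, with KI CFA, KI vehicle, WT CFA and WT vehicle from left to right. Points are libraries and bars are means ± SD (n = 4). Slit2, Sema5b, Sema7a, Plxnc1, Efnb2 and Unc5a lie higher in all 8 KI than in all 8 WT libraries, and Sema5a lies lower.

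Without overlap between all 8 KI and all 8 WT libraries stood 7 of 68 members, against 2.3% of all genes: Slit2, Sema5b, Sema7a, Plxnc1, Efnb2 and Unc5a were higher and Sema5a was lower. Sequence upstream of the listed gene start was read from RefSeq (build GRCm38.p6) for 18 of the 19 members called and 42 of the others. The GC box, GGGCGG on either strand, was present within 200 bases upstream in 15 of the 18 and in 30 of the 42, against 31.0% of 32851 promoters. These 32851 promoters were not limited to the genes tested or matched for GC content. Whether the share differs from that of expressed genes with like GC content was not tested. The TATA box, TATAAA on either strand, was found in 2 of the 18, Efnb2 and Slit2, and in 0 of the 42, against 9.96% of all promoters. A Runx core, TGTGGT, was found in 1 of the 18 (Sema4d) and 7 of the 42, against 11.2% of promoters, and an ETS core, CCGGAA, in 0 of the 18 and 6 of the 42, against 10.7%. Both strands were searched for each motif, and overlapping matches were counted. The windows below show 2 ligands that rose, Efnb2 and Slit3, beside a ligand and a receptor that fell, Sema5a and Nrp2, all picked after their values were seen from those whose listed promoter meets the gene's outermost start. Each is the 200 bases before the start, written 5′ to 3′ on the gene's strand, with GC box and TATA box matches in capitals. They lie at chr8:8661243-8661442 on the minus strand, chr11:35121256-35121455 on the plus strand, chr15:32244613-32244812 on the plus strand and chr1:62703117-62703316 on the plus strand.
Efnb2: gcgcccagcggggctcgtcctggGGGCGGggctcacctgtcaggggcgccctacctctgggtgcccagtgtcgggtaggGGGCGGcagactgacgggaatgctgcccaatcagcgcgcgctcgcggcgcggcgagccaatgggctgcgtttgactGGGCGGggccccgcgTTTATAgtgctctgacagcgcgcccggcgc
Slit3: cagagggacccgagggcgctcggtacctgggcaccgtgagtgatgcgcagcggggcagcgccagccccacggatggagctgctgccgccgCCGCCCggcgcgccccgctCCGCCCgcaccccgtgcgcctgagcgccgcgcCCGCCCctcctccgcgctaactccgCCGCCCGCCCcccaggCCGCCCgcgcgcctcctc
Sema5a: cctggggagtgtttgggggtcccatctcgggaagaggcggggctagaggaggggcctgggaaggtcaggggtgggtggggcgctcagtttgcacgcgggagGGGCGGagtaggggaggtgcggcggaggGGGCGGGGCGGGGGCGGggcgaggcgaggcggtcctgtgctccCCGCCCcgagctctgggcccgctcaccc
Nrp2: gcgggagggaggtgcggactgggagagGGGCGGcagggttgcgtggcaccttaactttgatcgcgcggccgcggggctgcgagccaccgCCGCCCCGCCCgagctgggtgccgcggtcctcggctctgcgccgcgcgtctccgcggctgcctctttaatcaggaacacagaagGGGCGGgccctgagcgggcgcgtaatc
The GC box occurs 3 times in the Efnb2 window, 6 in Slit3, 5 in Sema5a and 4 in Nrp2, and the TATA box occurs once, in Efnb2. Their GC content was 73.5%, 81.5%, 76.0% and 73.0% in the same order, against a median of 53.0% over all promoters.

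With vehicle alone, 9 of 68 members were called, against 4.34% of all genes. All 9 were higher in KI, against 2.15% of all genes called higher, and 0 were lower by edgeR, against 2.19%. DESeq2 called 14 members higher and 2 lower, limma-voom called 9 higher and 3 lower, and nominal p-values under 0.05 were found for 20 higher and 4 lower members. Slit2 rose, with a log2 fold change of 0.79 ± 0.12 (edgeR adjusted p = 0.00112), and so did Sema5b, with 0.75 ± 0.14 (edgeR adjusted p = 0.00706). Smaller rises were called for Slit3 at 0.58, Unc5a at 0.52, Plxna1 at 0.45, Efnb2 at 0.42, Sema7a at 0.36, Plxnc1 at 0.35 and Nrp1 at 0.21. The groups did not overlap for 17 members, 15 higher and 2 lower, against 14.6% of all genes. Skeletal muscle markers were highest in KI vehicle libraries, at 863, 2.89, 115 and 770.0 CPM in replicates 1 to 4, against 34.0, 3.51, 5.70 and 77.7 CPM in WT vehicle replicates 1 to 4, and 4 of 10 of these markers rose. Without KI vehicle replicates 1 and 4, a choice made after seeing the data, 3 members were called: Slit2, Efnb2 and Sema7a. Plxna1 then stood at 0.45, Plxnc1 at 0.35, Unc5a at 0.51, Sema5b at 0.63, Slit3 at 0.68 and Nrp1 at 0.23, all without a call. With 1 library left out, Nrp1 kept its call only without WT vehicle replicate 1 or 2 and otherwise stood at 0.15 to 0.23. Slit3 kept its call in 4 of 16 fits (without KI CFA replicate 2, KI vehicle replicate 1, WT CFA replicate 3 or WT vehicle replicate 1) and otherwise stood at 0.52 to 0.60. The CFA libraries are not in this comparison and enter its fit only through the shared spread, normalisation and filter. Sema7a lost its call without KI vehicle replicate 2, at 0.27. Fitted on the vehicle libraries alone, 4 members were called.

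With CFA, 9 of 68 members were also called, against 2.84% of all genes. Members higher in KI numbered 5, against 1.09% of all genes, and members lower numbered 4, against 1.75%. DESeq2 called 6 members higher and 7 lower, limma-voom called 5 higher and 9 lower, and 24 had a nominal p under 0.05. Sema6b rose, with a log2 fold change of 0.75 ± 0.13 (edgeR adjusted p = 0.00282), followed by Slit2 at 0.55, Unc5a at 0.48, Sema7a at 0.47 and Efnb2 at 0.38. Sema5a fell, with a log2 fold change of -0.65 ± 0.09 (edgeR adjusted p = 3.01e-04). Epha4 fell, with a log2 fold change of -0.71 ± 0.17 (edgeR adjusted p = 0.0318), and so did Nrp2, with -0.51 ± 0.10 (edgeR adjusted p = 0.00714), and Epha5, with -0.40 ± 0.08 (edgeR adjusted p = 0.0101). In this comparison 17 members did not overlap, 9 higher and 8 lower, against 8.13% of all genes. Epha4 lost its call without KI CFA replicate 1 (-0.66), 2 (-0.74) or 3 (-0.64) and without WT CFA replicate 2 (-0.60), 3 (-0.73) or 4 (-0.72). Epha5 lost its call without KI CFA replicate 3 (-0.36), and Slit2 without KI CFA replicate 3 (0.48) or WT CFA replicate 3 (0.46). Unc5a lost its call without KI CFA replicate 2 (0.42). The count was 6 without KI CFA replicate 3 and 17 without WT vehicle replicate 4. WT vehicle replicate 4 is not in this comparison and enters its fit only through the shared spread, normalisation and filter. The median log2 fold change of the members was -0.03 with it and -0.03 without it.

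Called after both injections were Slit2, Sema7a, Efnb2 and Unc5a, which are 44.4% of the members called with vehicle and 44.4% of those called with CFA. Signs agreed between the injections for 45 of 68 members, and the log2 fold changes correlated at 0.54 (Pearson) across the 68 genes, which are not independent. The 2 comparisons share no library. Whether a gene called after 1 injection alone differs in its genotype effect between injections is given by the interaction, in which no member was called by edgeR, DESeq2 or limma-voom, with 12 nominal p-values under 0.05.

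**Figure D4:**
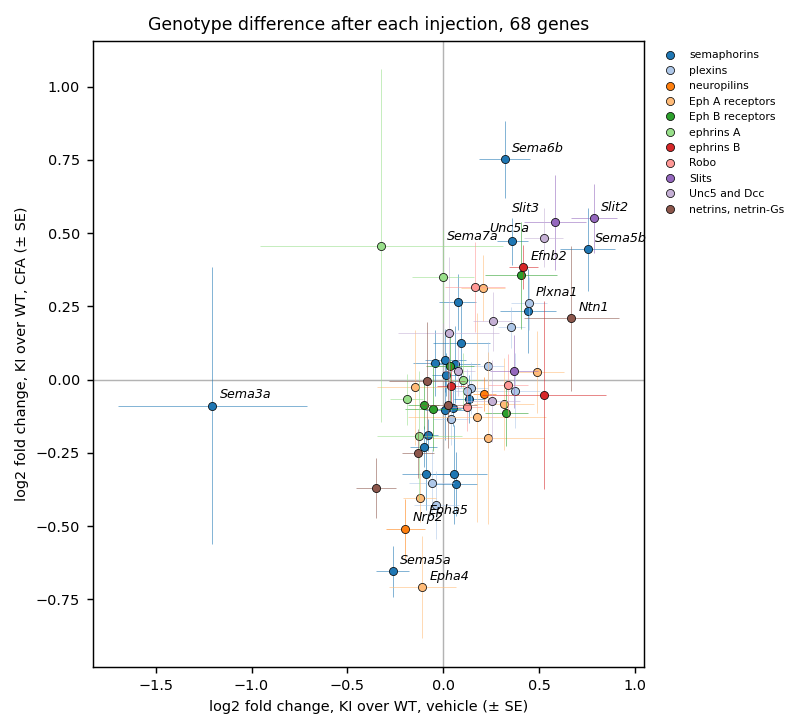
Log2 fold change of KI over WT with vehicle (horizontal) and with CFA (vertical) for 68 guidance genes, with standard errors, coloured by family. Slit2, Sema7a, Efnb2 and Unc5a lie in the upper right, and Sema5a, Nrp2, Epha4 and Epha5 lie low on the vertical axis. Sema3a and Ntn1 are marked as outlying points that were not called.

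Co-receptors and intracellular effectors of the same pathways were counted in the same fit. Of 20 co-receptors and partners, all tested, 2 rose and 4 fell over both injections, against 8.96% of all genes called, with a median log2 fold change of -0.02. Nrcam, an adhesion molecule that associates with Nrp2, averaged 105 ± 8.72 CPM in KI CFA and 121 ± 5.46 CPM in KI vehicle, against 149 ± 13.2 CPM in WT CFA and 147 ± 11.5 CPM in WT vehicle libraries. Nrcam fell, with a log2 fold change of -0.39 ± 0.05 (edgeR adjusted p = 6.78e-05). Its relative Chl1, which associates with Nrp1, fell, with a log2 fold change of -0.24 ± 0.06 (edgeR adjusted p = 0.0130). Rgma, a repulsive ligand of neogenin, rose, with a log2 fold change of 0.35 ± 0.07 (edgeR adjusted p = 0.00379), and Dscam, a netrin receptor, rose, with a log2 fold change of 0.26 ± 0.07 (edgeR adjusted p = 0.0282). Gpc1, a heparan sulphate proteoglycan that binds Slits, fell, with a log2 fold change of -0.13 ± 0.03 (edgeR adjusted p = 0.0175), and Cd72, a Sema4d receptor of B cells, fell (-0.99 ± 0.27) at a level of 0.504 ± 0.190 CPM in KI CFA and 1.17 ± 0.264 CPM in WT CFA libraries (edgeR adjusted p = 0.0287). With vehicle 1 of the 20 rose (Rgma) and 1 fell (Nrcam), against 4.34% of all genes called. With CFA 2 fell (Nrcam and Chl1) and 0 rose by edgeR, against 2.84% of all genes called. There were 7 nominal p-values under 0.05 in either direction, 2 calls in DESeq2 and 4 in limma-voom. Leaving out 1 library ended the Dscam call without KI CFA replicate 2 (0.25), KI vehicle replicate 2 (0.25) or 4 (0.26), or WT CFA replicate 3 (0.25) or 4 (0.24). With the muscle score as a covariate, 4 of the 6 calls over both injections were lost, those of Chl1 (-0.24), Cd72 (-0.81), Dscam (0.28) and Gpc1 (-0.13). Chl1, Dscam and Gpc1 kept values near those of the main fit, with edgeR adjusted p of 0.055 to 0.058. Their standard errors were 0.07, 0.08 and 0.04, against 0.06, 0.07 and 0.03 in the main fit. The vehicle calls of Rgma (0.32) and Nrcam (-0.29) were also lost with the muscle score. Without KI vehicle replicates 1 and 4 the calls of Chl1 (-0.25), Cd72 (-0.90) and Dscam (0.25) over both injections were not made. Nor were the vehicle calls of Rgma (0.38) and Nrcam (-0.31). The CFA call of Chl1 was lost with the muscle score (-0.33) and without KI vehicle replicates 1 and 4 (-0.33). Leaving out 1 library ended the Gpc1 call without KI CFA replicate 3 (-0.11), KI vehicle replicate 3 (-0.12) or WT CFA replicate 1 (-0.11). Cd72 lost its call without KI CFA replicate 2 or 4, KI vehicle replicate 3 or 4, WT CFA replicate 2 or 4, or WT vehicle replicate 2, where it stood at -0.97 to -0.76. With vehicle, Rgma (0.39) lost its call without KI vehicle replicate 2, 3 or 4 or WT vehicle replicate 3 or 4 (0.34 to 0.40). Nrcam (-0.28) kept its vehicle call in 6 of 16 fits (without KI CFA replicate 1 or 4, WT CFA replicate 2, 3 or 4, or WT vehicle replicate 4), with -0.31 to -0.23 in the rest. With CFA, Nrcam (-0.51) kept its call in 16 of 16 fits, whereas Chl1 (-0.33) lost it without KI CFA replicate 1, 2 or 3, KI vehicle replicate 3 or WT CFA replicate 1 or 2 (-0.36 to -0.26).

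Of 50 intracellular effectors, 5 rose and 1 fell over both injections, 6 of 50 against 8.96% of all genes, and the median log2 fold change was 0.00. Ngef, an exchange factor for small GTPases that acts below EphA receptors, averaged 11.4 ± 2.05 CPM in KI CFA and 13.6 ± 3.39 CPM in KI vehicle, against 8.58 ± 0.445 CPM in WT CFA and 7.53 ± 1.27 CPM in WT vehicle libraries. Ngef rose, with a log2 fold change of 0.63 ± 0.12 (edgeR adjusted p = 0.00235). Vav3, another such exchange factor, rose, with a log2 fold change of 0.41 ± 0.07 (edgeR adjusted p = 6.12e-04), and so did Enah, an actin regulator, with 0.31 ± 0.09 (edgeR adjusted p = 0.0280). The Rac exchange factor Tiam1 rose, with a log2 fold change of 0.28 ± 0.08 (edgeR adjusted p = 0.0396), and Arhgef12, which binds class B plexins, with 0.18 ± 0.05 (edgeR adjusted p = 0.0295). Dpysl4, of the collapsin response mediator family, fell, with a log2 fold change of -0.26 ± 0.07 (edgeR adjusted p = 0.0202). Ngef (0.84), Vav3 (0.40) and Arhgef12 (0.27) were also called with vehicle, 3 of 50 against 4.34% of all genes, and Vav3 (0.42) with CFA, 1 of 50 against 2.84%. DESeq2 called 11 effectors and limma-voom 8 over both injections. With 1 library left out, the calls of Ngef, Vav3 and Dpysl4 over both injections held in 16 of 16 fits. Arhgef12 lost that call without KI CFA replicate 3 or 4, KI vehicle replicate 4 or WT CFA replicate 3 or 4 (0.17 to 0.18). Enah lost it without KI CFA replicate 2 or 3, KI vehicle replicate 2 or 4, WT CFA replicate 3 or 4, or WT vehicle replicate 3 (0.27 to 0.31). Tiam1 kept it only without KI CFA replicate 1, KI vehicle replicate 1, WT CFA replicate 2 or 4, or WT vehicle replicate 1 or 2, with 0.24 to 0.30 in the rest. With the muscle score, Arhgef12 (0.20), Enah (0.33) and Tiam1 (0.30) were not called over both injections. Their values were no smaller than in the main fit, and their edgeR adjusted p was 0.060 to 0.086. The vehicle calls of Ngef (0.74), Vav3 (0.38) and Arhgef12 (0.30) were also lost with the muscle score. Without KI vehicle replicates 1 and 4, the calls of Arhgef12 (0.17), Enah (0.31) and Tiam1 (0.30) over both injections were not made. With vehicle, Vav3 lost its call without KI vehicle replicate 1, 2 or 4 or WT vehicle replicate 4 (0.34 to 0.41). Arhgef12 lost its vehicle call without any 1 of the 4 KI vehicle libraries or without WT vehicle replicate 3 or 4 (0.20 to 0.30). Without KI vehicle replicates 1 and 4 together, none of these 3 vehicle calls was made (Ngef 0.62, Vav3 0.36, Arhgef12 0.25). With CFA, Vav3 lost its call without KI CFA replicate 2, 3 or 4 or WT CFA replicate 1, 3 or 4 (0.37 to 0.41).

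No guidance gene passed the threshold between CFA and vehicle. Between CFA and vehicle, 0 of 68 members were called in KI, in WT or over both genotypes by edgeR, DESeq2 or limma-voom, against 0%, 0% and 0.0258% of all genes in edgeR. Nominal p-values under 0.05 were found for 5 members in KI (7.35%, against 5.68% of all genes), 5 in WT (7.35%, against 6.96%) and 2 over both genotypes (2.94%, against 6.57%). The smallest adjusted p was 0.425 in KI, 0.681 in WT and 0.429 over both. In KI the member with the smallest p was Sema5a, with 81.7, 65.0, 73.1 and 72.8 CPM with CFA and 77.8, 93.8, 92.6 and 98.0 CPM with vehicle. The ranges overlapped through KI vehicle replicate 1, and the log2 fold change was -0.31 ± 0.09 (edgeR adjusted p = 0.425). Sema3d, a secreted class 3 semaphorin, had 8.08, 8.63, 10.6 and 9.64 CPM with CFA and 11.8, 12.0, 10.8 and 13.0 CPM with vehicle in KI, without overlap, at -0.37 ± 0.11 (edgeR adjusted p = 0.448). In WT the smallest p belonged to Ephb2, a receptor for ephrin-Bs, with 7.70, 8.70, 7.16 and 6.71 CPM with CFA and 6.08, 6.60, 5.83 and 5.20 CPM with vehicle, without overlap, at 0.35 ± 0.11 (edgeR adjusted p = 0.681). Unc5b, a netrin receptor, had log2 fold changes of 0.17 ± 0.09 in KI and 0.22 ± 0.09 in WT (edgeR adjusted p = 0.429 over both). Sema4b, a transmembrane semaphorin, had 0.17 ± 0.07 in KI and 0.16 ± 0.07 in WT (edgeR adjusted p = 0.457 over both), and without KI CFA replicate 2 its value in KI was 0.09. Groups that did not overlap numbered 4 members in KI, all lower with CFA (Efnb1, Nrp1, Plxna4 and Sema3d), against 4.32% of all genes, and 3 in WT, all higher (Ephb2, Nrp1 and Unc5b), against 3.02%. Over both genotypes 0 members separated all 8 CFA from all 8 vehicle libraries, against 0.0645% of all genes.

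The sign of the CFA difference leaned opposite ways in the genotypes, without a call for any gene. In KI 47 of 68 members were lower with CFA, with a median log2 fold change of -0.09, and in WT 46 were higher, with a median of 0.05, against 0.00 and -0.01 over all genes. In total 35 members were lower in KI and higher in WT, and 10 the reverse. The share of all genes with these signs is not given here, and members measured in the same libraries are not independent. The interaction, the CFA difference in KI minus that in WT, had a median of -0.12 over the 68 members, against 0.00 over all genes, and 50 members were negative. No member was called in the interaction by edgeR (0% of all genes), DESeq2 or limma-voom, and 12 had a nominal p under 0.05 (17.6%, against 6.29% of all genes), 11 of them negative. Nrp1 had 88.6, 88.5, 86.6 and 89.7 CPM with CFA and 96.8, 91.8, 98.4 and 90.6 CPM with vehicle in KI. In WT it had 94.3, 92.4, 88.0 and 90.9 CPM with CFA and 87.8, 87.3, 79.6 and 70.5 CPM with vehicle. The groups were separate in both genotypes, lower with CFA in KI and higher with CFA in WT, and the interaction was -0.26 ± 0.08 (edgeR adjusted p = 0.718). Sema5a had an interaction of -0.39 ± 0.12 and Ephb2 of -0.44 ± 0.16, with the same adjusted p. Among families, all 9 plexins were lower with CFA in KI, with log2 fold changes of -0.22 to -0.03, and all 9 were higher with CFA in WT, from 0.00 to 0.22. With these signs all 9 interactions are negative by construction, and their median was -0.19. The pattern was not particular to plexins. Both neuropilins had the same signs, at -0.20 to -0.10 in KI and 0.11 to 0.17 in WT. Slits and ephrin-Bs were also all lower with CFA in KI and all negative in the interaction, with mixed signs in WT. Satellite glia markers summed to 4514 CPM in WT vehicle replicate 4, against 2895 to 3541 CPM in the other WT vehicle libraries. In the same library the 5 peptidergic markers summed to 2744 CPM, against 1748 to 1865 CPM, and the C-low-threshold mechanoreceptor markers to 532 CPM, against 758 to 813 CPM. Its non-peptidergic markers summed to 2322 CPM, against 2712 to 2787 CPM, and its A-fibre markers to 2896 CPM, against 3263 to 3500.1 CPM. The part of these markers in the values was not tested. Without that library 7 of 9 plexins were higher with CFA in WT, at a median of 0.05 against 0.12 with it, and all 9 interactions were still negative, at a median of -0.15. In WT 8 of 9 were higher without WT CFA replicate 1, WT CFA replicate 2 or WT vehicle replicate 1, and also with the replicate block, the muscle score, the WT source number covariate or only the groups compared. In KI 8 of 9 were lower without KI CFA replicate 1, without KI CFA replicate 2 or without KI vehicle replicates 1 and 4. Without WT vehicle replicate 4 the WT median of the 68 members was 0.02 and the interaction median -0.10, the Nrp1 difference in WT was 0.11 and its interaction -0.20. The WT median was also 0.02 without WT CFA replicate 2 and 0.10 without WT CFA replicate 3. The KI median was -0.05 without KI vehicle replicate 4 and -0.11 without KI vehicle replicate 1, both libraries rich in muscle RNA. It was -0.06 without KI vehicle replicates 1 and 4 together and -0.11 with the muscle score as a covariate. The 2 genotype-specific CFA comparisons share no library, while the interaction is built from both. The interaction median was -0.11 for the 20 partners and -0.12 for the 50 effectors, close to that of the guidance genes. None of either list was called for CFA or the interaction by edgeR, DESeq2 or limma-voom, and 1 partner and 2 effectors had a nominal p under 0.05 in the interaction.

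**Figure D5:**
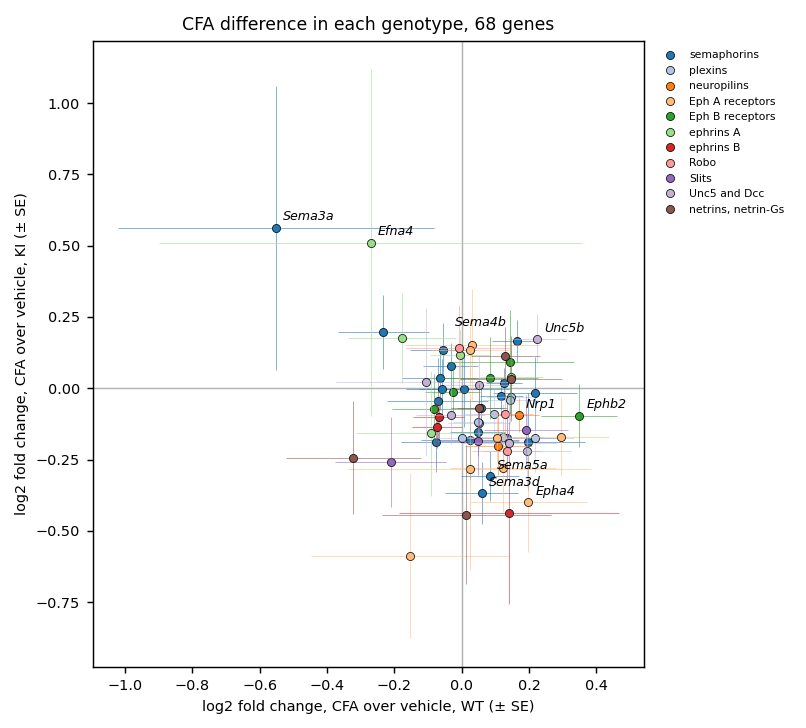
Log2 fold change of CFA over vehicle in WT (horizontal) and in KI (vertical) for 68 guidance genes, with standard errors, coloured by family. No gene was called on either axis, and 35 of 68 points lie to the right of 0 and below 0.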

How the data were processed

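Poly-A RNA (16 libraries, single-end reads, stranded kit, per the labels' protocols) was counted per gene. The deposited values are raw counts, and per the submitters' processing notes TopHat2 2.1.1, Bowtie2 2.3.5.1, SAMtools 1.5, HTSeq 0.6.1p1 and the mm10 build were used. The annotation and strand setting are not given in the sources used here. Groups were taken from sample titles. The members and gene lists were chosen with earlier results of these data known. Here the counts were normalised by TMM, filtered by expression and fitted with edgeR 4.0.16 (quasi-likelihood, 4 group means, 16 libraries, R 4.3.3), with Benjamini-Hochberg adjustment over 15507 genes and a threshold of 0.05. Each library pools mice, so its spread is that between pools. Levels per kilobase used the union of GENCODE M21 exons. Members named are those called in any comparison, the 3 with the smallest p in each and the highest per family. Dcc, Efna4, Efnb1, Ntn1, Plxna4 and Sema3a were named after their values were seen. Alternatives were DESeq2 1.42.0, limma 3.58.1 (voom with quality weights), RLE size factors, other filters (none, or at least 1 CPM in 4 libraries), robust dispersion, a replicate block, a muscle score, a WT source number covariate, fits on only the groups compared, each library left out in turn, and, added after seeing the data, a fit without KI vehicle replicates 1 and 4. The level of 1 marker gene is not reported here. The test was checked on simulated data.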

Additional observations from a re-analysis of the deposited data

Results flagged for a closer look

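Within 120 groups of 4 libraries (30 genes named, 4 groups each), a single library lay far from the other 3 in 4 cases, and chance flags about 1 in 20 groups. Sema6b had 10.2 CPM in KI CFA replicate 2, against 7.77 to 8.13 CPM in the other KI CFA libraries. Sema3b had 112 CPM in KI vehicle replicate 1, the library with the most skeletal muscle RNA, against 141 to 143 CPM in the other KI vehicle libraries. KI vehicle replicate 4, also rich in muscle RNA, had 143 CPM. In WT vehicle replicate 4, Ntng1 had 41.0 CPM, against 50.4 to 52.1 CPM in the other WT vehicle libraries, and Robo2 had 210.6 CPM, against 278 to 292 CPM.

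Nrp1 was lower with CFA in every KI library and higher with CFA in every WT library than in the vehicle libraries of the same genotype. The gaps were narrow, 89.7 CPM (CFA) against 90.6 CPM (vehicle) in KI and 88.0 CPM (CFA) against 87.8 CPM (vehicle) in WT. Groups without overlap were found for 4.32% of all genes in KI and 3.02% in WT. Without WT vehicle replicate 4 the log2 fold change in WT was 0.11, against 0.17 with it. The difference between the 2 CFA effects was -0.26 on the log2 scale (edgeR adjusted p = 0.718), so it was not called.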

How the results depend on the processing

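Among the calls of single members, no direction reversed in any alternative: 825 refitted values kept their call and 155 lost it. With 1 library left out, the count of members called ran from 6 to 10 with vehicle, 6 to 17 with CFA and 13 to 20 over both injections, and stayed at 0 for CFA and the interaction. With vehicle, 9 members were called in the main test, 4 with only the groups compared, 17 with WT libraries split by the number in their source names as a covariate, 16 with DESeq2 and 3 without the 2 KI vehicle libraries richest in muscle RNA. With CFA, 9 were called in the main test and 14 each with that covariate and with limma-voom, and 17 without WT vehicle replicate 4. That library is not in the CFA comparison and enters its fit only through the shared spread, normalisation and filter. The shares of all genes called in these fits are not given here, and the cause of the changes in count was not tested. With a skeletal muscle score as covariate, 8 members were called with vehicle, 8 with CFA and 13 over both injections. Same-numbered libraries did not deviate together (correlations of -0.21 to 0.13 over 24 pairs, 2 of 16 libraries closest to their own number). The labels do not state that the replicate number is a pairing. Deviations from means of only 4 libraries cannot settle whether it is. With the replicate block 8 members were called with vehicle, 9 with CFA and 15 over both injections. Depth limits Robo3 and Epha1, which were not tested, and genes below 1 CPM such as Sema3a and Efna4, whose standard errors are wide.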
